A study of Mus musculus with 4 samples.

Results

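The genes described here are 59 mouse genes of endoplasmic reticulum (ER) stress and ER protein folding. They encode the sensors and transcription factors of the unfolded protein response (UPR), chaperones, disulfide isomerases, and the ER degradation and translocation machinery. They were matched by gene symbol to the deposited lists of candidate spliced regions, which hold 2533 regions for dithiothreitol (Dtt) and 55 for thapsigargin (Tg), or 2588 in all. In the Dtt list 20 of the 59 genes had at least 1 region and together they had 33 regions. In the Tg list none of the 59 genes had a region. The other 39 genes had no row under their symbol in either list.

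The lists came from poly-A RNA-Seq of mouse embryonic fibroblasts (MEFs) of the C57BL/6 strain, fibroblasts grown from mouse embryos. There were 4 libraries, with *Ire1*α heterozygous (Het) and *Ire1*α knockout (KO) cells sequenced once each in both experiments. The Het cells were treated for 4 h with 500 nM Tg, an inhibitor of the ER calcium pump, or with 1 mM Dtt, which reduces disulfide bonds. In the sample labels the KO cells of either experiment are untreated, whereas the paper's methods describe the same treatment for both genotypes. The KO lines carried different alleles, a floxed allele lacking the kinase domain in the Tg experiment and a larger deletion of the kinase and RNase domains in the Dtt experiment. Het cells keep 1 intact allele. Each row of a list gives a region's supporting reads, splice length and outer boundaries in the Het sample. Regions that had a match in the KO sample were removed by the authors, and no row holds a KO number, so the lists give no level to set against the Het reads. They also give no expression level, so neither the abundance of these genes nor the fibroblast identity of the cells could be examined. The supporting reads summed to 6436 in the Dtt list and 135 in the Tg list, of which the ER genes had 77 and 0. Library totals were not used here. Tg reads were shorter than Dtt reads, so treatment, read length, depth and knockout line cannot be told apart between the experiments.

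The ER folds secreted and membrane proteins with the help of chaperones and of enzymes that form disulfide bonds. When unfolded proteins accumulate, the membrane sensors IRE1α, PERK and ATF6 start the UPR, which slows translation and raises the transcription of chaperone and degradation genes. IRE1α (encoded by *Ern1*) is a kinase and RNase that cuts a short intron out of *Xbp1* mRNA in the cytosol, without the spliceosome and without GT-AG ends. Most other introns begin with GT at the donor and end with AG at the acceptor.

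As a background, 8.71% of the protein coding genes of GENCODE vM1 had a Dtt region and 0.229% had a Tg region. The share of the 59 ER genes with a Dtt region was 33.9% (20 of 59, 95% Wilson interval 23.1% to 46.6%), and in Tg it was 0%. These counts rest mostly on regions with 2 reads. With at least 3 reads the share was 6.78% (4 of 59), beside 2.37% of the protein coding genes, and with at least 5 reads it was 3.39% (2 of 59), beside 0.351%. A region is listed only where reads cross it, and the lists hold no expression level to set beside this share. The genes were also chosen with earlier results of these lists known, so the share is given as a description.

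Of the 10 ER chaperones and co-chaperones, 7 had 13 regions between them. Of the 7 disulfide isomerases, reductases and oxidases, 3 had 7 regions, and of the 14 genes of ER-associated degradation 4 had 7 regions, 4 of them in *Herpud1*. The PERK branch targets and feedback genes had a region in 3 of 5 genes. The sensors and their proteases had a region in 1 of 6 genes (*Atf6b*), the lectin chaperones and glycoprotein quality control genes in 1 of 3 (*Canx*) and the translocation genes in 1 of 6 (*Sec63*). None of the 7 transcription factors (*Atf4*, *Atf3*, *Atf5*, *Ddit3*, *Creb3*, *Creb3l1* and *Creb3l2*) had one. *Ern1* itself, *Eif2ak3* (which encodes PERK), *Atf6* and *Bloc1s1*, a known substrate of IRE1α-dependent mRNA decay, had no listed region either.

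The remaining genes with no row under their symbol were *Mbtps1* and *Mbtps2*, *Trib3* and *Asns*, *Dnajb11*, *Dnajc3* and *Sil1*, *Calr* and *Uggt1*, *Pdia6*, *P4hb*, *Dnajc10* and *Ero1l*, *Edem1*, *Edem3*, *Syvn1*, *Derl1*, *Derl2*, *Derl3*, *Os9*, *Vcp*, *Selk* and *Vimp*, and *Sec61a1*, *Sec61b*, *Sec62*, *Ssr1* and *Ssr3*. *Vimp*, which encodes an ER membrane selenoprotein of the degradation machinery, is a partial exception. The Dtt list has a region under *H47*, another symbol of this gene, at chr7:73224703-73225217 with a splice length of 513 bp, 2 reads and GT-AG ends. It was not counted among the 33 regions.

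All regions of the ER genes had little support. Of the 33 regions, 29 had 2 reads, the minimum for a region to be listed, and 2 had 3 reads. Only *Canx* with 8 reads and *Pdia3* with 5 had more. Regions with 3 or more reads made up 12.1% of the ER gene regions (4 of 33, Wilson interval 4.82% to 27.3%), beside 23.6% of all Dtt regions. Regions with 5 or more reads made up 6.06% (2 of 33), beside 3.51% of all Dtt regions. Counting error alone is wide at these depths, with an exact 95% Poisson interval of 0.242 to 7.22 for 2 reads, 0.619 to 8.77 for 3 reads, 1.62 to 11.7 for *Pdia3* and 3.45 to 15.8 for *Canx*. The intervals cover counting error only, since without molecular identifiers several reads may come from 1 molecule, and they do not account for the minimum of 2 reads.

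The *Xbp1* region of 26 bp, the known product of IRE1α, had 173 reads in the same library. This was 21.6 times the 8 reads of *Canx*, the ER gene region with the most. *Pdia3* came next with 5. These regions were picked by their reads, so the ratio is a description and no test is given. In the whole list 20 regions had more reads than the *Canx* region, and 54 had more than that of *Pdia3*. With reads summed over regions, *Hspa5* and *Pdia4* had 10 each, *Canx* and *Herpud1* 8 each, and *Hsp90b1* 6.

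**Figure D1:**
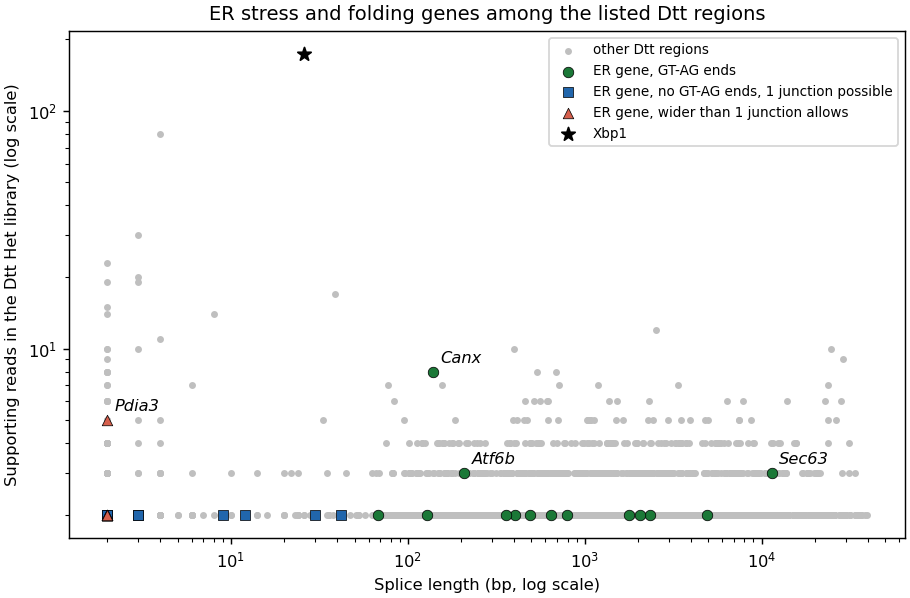
Supporting reads in the Dtt Het library against splice length in bp, both on log scales, for each of the 2533 listed regions. Regions of the ER genes are coloured by the kind of ends they have. *Xbp1* stands at 173 reads, *Canx* at 8 and *Pdia3* at 5, and 29 of the 33 ER gene regions lie on the line of 2 reads.

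The splice lengths of the ER gene regions ran from 2 to 11407 bp and were counted in classes with borders at 10 and 50 bp. Of the 33, 16 were under 10 bp (48.5%, Wilson interval 32.5% to 64.8%), beside 17.4% of all Dtt regions. Without the 9 regions that are wider than 1 junction allows, described further on, the share was 29.2% (7 of 24, Wilson interval 14.9% to 49.2%), beside 10.7% of the list without such regions. Among the 16, 13 were 2 bp long, which is 39.4% of the 33, beside 14.3% of the list. Another 3 were between 10 and 49 bp (9.09%, beside 1.46%) and 14 were 50 bp or longer (42.4%, beside 81.1%). The median splice length was 12 bp, beside 902 bp for the whole list. By role, 10 of the 13 regions of chaperones and co-chaperones were under 10 bp, 5 of them in *Hspa5*, and 5 of the 7 regions of the disulfide enzymes, 3 of them in *Pdia4*. Of the 7 regions of degradation genes 6 were 50 bp or longer (85.7%, beside 81.1% of the list), 3 of them in *Herpud1*.

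All 14 regions of 50 bp and over had GT-AG ends on the strand of the gene (100%, Wilson interval 78.5% to 100%), beside 91.1% of all Dtt regions of this length. All 14 also had at least 1 end at a splice site of GENCODE vM1 (of any gene on that strand), beside 97.8% of the GT-AG regions in the list. In the ER genes this end was the donor in every case. In 11 of the 14 (78.6%, Wilson interval 52.4% to 92.4%) only the donor was annotated, beside 30.1% in the list. In 0 of the 14 only the acceptor was annotated, beside 28.5% in the list. Of the other 3, 1 joined annotated ends that no annotated intron joins (7.14%, beside 19.9%), skipping an exon, and 2 were introns of GENCODE vM1 (14.3%, beside 19.2%). No test was made of these differences, since the genes were not chosen independently of the lists.

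In 7 of the 11 regions anchored at the donor (63.6%, Wilson interval 35.4% to 84.8%), the acceptor lay inside the downstream exon, beside 43.1% of all such Dtt regions, so that exonic bases were removed with the intron. In the other 4, it lay inside the annotated intron. In 9 of the 11 (81.8%, Wilson interval 52.3% to 94.9%) the acceptor was within 50 bp of the annotated one, beside 48.6% of all such Dtt regions. Among the 7 with exonic bases removed, all of them coding, the number of bases was divisible by 3 in 4 (57.1%, Wilson interval 25% to 84.2%), beside 35.6% of the Dtt regions of this class. The intervals for an acceptor inside the exon and for divisibility by 3 include the share of the list. That for an acceptor within 50 bp does not, but this is no test of a difference. The genes were not chosen independently of the lists, and *Pdia4* and *Herpud1* each gave more than a single region of the 11.

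*Canx* encodes calnexin, a membrane lectin chaperone that binds glycoproteins. Its region (ENSMUSG00000020368.8, minus strand) had the boundaries chr11:50110636-50110776, a splice length of 139 bp and 8 reads. The donor was that of transcript Canx-001, and the acceptor lay 3 bp inside the exon, removing 3 coding bases and leaving the frame. *Atf6b* encodes a membrane-bound transcription factor related to ATF6. Its region at chr17:34790238-34790449 had a splice length of 209 bp and 3 reads, and it also used the annotated donor (Atf6b-002) and an acceptor 3 bp inside the exon. Such a 3 bp shift was found in 2 of the 11 donor-anchored regions (18.2%), beside 6.91% in the list. The sequences around these ends are shown because both acceptors follow a first AG by 3 bases. They are mm9, on the strand of the gene, with the removed bases in capitals.
Canx donor, chr11:50110764-50110787: aggagaagcttgGTGAGCGGAGTC
Canx acceptor, chr11:50110625-50110648: CTGTCTTAGAAGagaaacagaaga
Atf6b donor, chr17:34790229-34790252: caggagagacagGTAGGAGCCAGT
Atf6b acceptor, chr17:34790438-34790461: TCCTTCCAGAAGtctcagctacgg
In both, the annotated intron ends at the first AG and the listed region ends at the AAG that follows it. Both regions thus share 1 end with an annotated intron and differ from it by 3 bp at the other, less than the distance of 5 bp within which the authors removed known junctions of their own UCSC set. Whether that set held these introns was not examined here, so nothing follows about their filter.

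*Hsp90b1* encodes GRP94, the HSP90 chaperone of the ER. Its region of 795 bp at chr10:86158668-86159465 with 2 reads removed 40 coding bases of the downstream exon, which is not divisible by 3. *Manf* encodes a small secreted protein that is induced by ER stress. Its region of 647 bp at chr9:106793496-106794146 with 2 reads removed 32 coding bases. *Hyou1* encodes GRP170, a large chaperone and nucleotide exchange factor. Its region of 128 bp at chr9:44193044-44193173 with 2 reads ended 27 bp before the annotated acceptor of Hyou1-001. This keeps 27 intronic bases if the known exon is extended to it. Of these 3 chaperone regions, only that of *Hyou1* would then change the transcript by a number of bases divisible by 3.

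*Pdia4* encodes ERp72, a disulfide isomerase with several thioredoxin-like domains. It had 5 regions with 2 reads each, and 2 of them had GT-AG ends. That of 4882 bp at chr6:47758333-47763217 removed 9 coding bases, which leaves the frame. That of 2347 bp at chr6:47754157-47756505 ended 248 bp before the annotated acceptor, inside the intron.

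*Sel1l*, the scaffold of the HRD1 ubiquitin ligase complex, had a region of 358 bp at chr12:93063378-93063737 with 2 reads that removed 36 coding bases and left the frame. *Edem2*, which trims mannose from misfolded glycoproteins, had a region of 2050 bp at chr2:155541949-155544002 with 2 reads that removed 8 coding bases. *Ufd1l*, a cofactor of the p97 segregase, had a region of 490 bp at chr16:18815454-18815944 with 2 reads. It coincided with an intron of transcript Ufd1l-003 in GENCODE vM1.

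*Herpud1*, an ER membrane protein of the degradation complex that is strongly induced by the UPR, had 4 regions with 2 reads each. That of 1775 bp at chr8:96911480-96913255 coincided with an intron of Herpud1-003. Those of 68 bp at chr8:96913331-96913403 and 406 bp at chr8:96914745-96915155 began at annotated donors of Herpud1-001 and ended 19 bp and 477 bp before the annotated acceptors. The *Herpud1* ends are shown because they include the acceptor farthest from an annotated one among the ER genes.
Herpud1 406 bp donor, chr8:96914737-96914760: gaacatctctagGTGAGTGCCCAT
Herpud1 406 bp acceptor, chr8:96915143-96915166: TCTGTAAATTAGgctggaatcttt
Herpud1 68 bp donor, chr8:96913322-96913345: ttgcttccaaagGTATTTGTAGCC
Herpud1 68 bp acceptor, chr8:96913390-96913413: TCAGGCTCTGAGgtgtctcttgtt
Whether such an acceptor opens a new exon or a longer form of the known exon cannot be read from a list of single junctions.

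*Sec63*, a partner of the SEC61 translocation channel that recruits the chaperone BiP, had the longest region of these genes, 11407 bp at chr10:42536273-42547684, with 3 reads. It joined an annotated donor to an annotated acceptor and left out exon 19 of Sec63-001. The skipped exon holds 99 coding bases, which is divisible by 3.

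**Figure D2:**
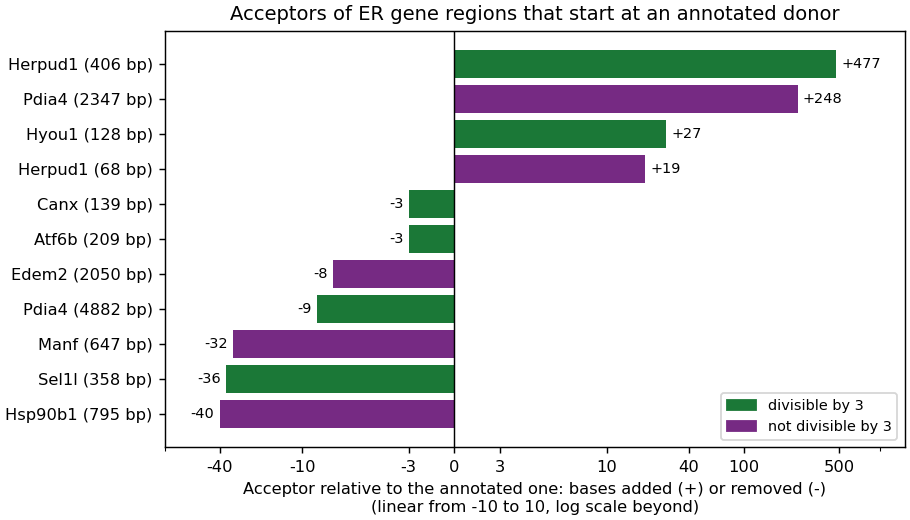
Position of the acceptor relative to the annotated one, for the 11 ER gene regions that start at an annotated donor and end at an acceptor that is not annotated. Bases between these acceptors are counted as added (positive) or removed (negative), which for added bases assumes that all are kept. The axis is linear up to 10 bp on either side of 0 and logarithmic beyond, and colours give whether the change is divisible by 3. Of the 11 changes, 7 lie between -40 and -3, and the *Herpud1* region of 406 bp is the farthest at 477.

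In most of the regions of 2 bp the boundaries lay farther apart than a single junction allows. A read that crosses a gap and maps without mismatches gives the same gap wherever it is split, except that the gap can slide where the bases at its ends repeat. When the listed boundaries of a region lie farther apart than the splice length plus this sliding, no single gap accounts for both boundaries. This held for 9 of the 33 ER gene regions (27.3%, Wilson interval 15.1% to 44.2%), beside 8.01% of all Dtt regions. All 9 were among the 13 regions of 2 bp (69.2%, Wilson interval 42.4% to 87.3%), beside 48.8% of the 2 bp regions in the list. None of the 14 longer regions was of this kind, beside 0.389% in the list. Of the 9, 8 had 2 reads. In *Pdia3*, a disulfide isomerase that works with calnexin and calreticulin, the boundaries of the 5 reads were chr2:121263493-121263521 in its 3′ UTR, and the lowest and highest gap that fit them began 26 bp apart. Over the 9 regions this distance ran from 16 to 54 bp. Per the methods, Dtt reads of equal splice length were joined where their boundaries lay within 27 bp. In 6 of the 8 wide regions with 2 reads the distance was larger than that, also with both gaps slid as near to each other as their bases allow (75.0%, Wilson interval 40.9% to 92.9%), beside 39.2% of such regions in the list. How these boundaries arose, and how many gaps the reads hold, was not tested.

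*Hspa5* encodes BiP, the HSP70 chaperone of the ER and a regulator of the UPR sensors. It lies on chromosome 2 from 34627490 to 34632051 on the plus strand. It had 5 regions, all of 2 bp and all with 2 reads, and 4 of them were wider than 1 junction allows. In the list as a whole 6 genes had more regions than *Hspa5* and *Pdia4*. Of the 20 ER genes with a region, 4 had 3 or more (20.0%, Wilson interval 8.07% to 41.6%), beside 4.72% of all genes in the Dtt list. The first lay in a coding exon at chr2:34629767-34629823, and its lowest and highest gap began 54 bp apart. The next lay at chr2:34631145-34631191 and chr2:34631324-34631342, both in coding sequence of the last exon, with lowest and highest gaps 44 and 16 bp apart. The fourth, at chr2:34631616-34631656 with such gaps 38 bp apart, began in the coding part and ended in the 3′ UTR. The fifth, at chr2:34631761-34631765, lay in the 3′ UTR and was the only *Hspa5* region that 1 junction could give. The ends of the first region and the gap of the last are shown, with the removed bases in capitals, to show that a gap at the lower and one at the upper boundary of a wide region lie in different sequence.
Hspa5 first region, lower gap, chr2:34629758-34629780: gaaaactggtAAagatgttagga
Hspa5 first region, upper gap, chr2:34629812-34629834: tgaggtagaaAAggctaagagag
Hspa5 last region, chr2:34631752-34631774: ttgaaaatgcTAtagcccaagtg

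**Figure D3:**
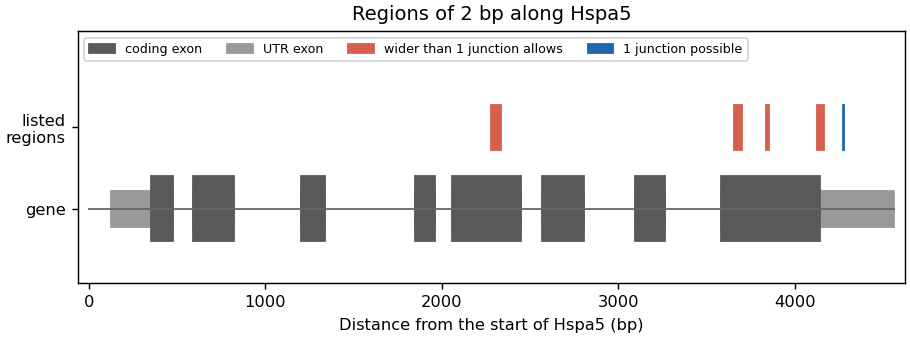
The listed regions along *Hspa5*, by distance in bp from the start of the gene, above the exons of transcript Hspa5-001. Of the 5 regions, 4 are wider than 1 junction allows, and 4 lie over the last exon, the final one in the 3′ UTR.

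The other wide regions lay in the 3′ UTR of *Hsp90b1* (chr10:86153798-86153833, lowest and highest gap 33 bp apart), *Dnajb9* (chr12:45307438-45307490, 50 bp), *Chac1* (chr2:119179910-119179942, 30 bp) and *Pdia4* (chr6:47746353-47746382, 27 bp). *Dnajb9* encodes a BiP co-chaperone, and *Chac1* encodes a glutathione-degrading enzyme induced through PERK. With *Pdia3*, 5 of the 9 wide regions had the lower boundary in a 3′ UTR (55.6%, beside 54.2% of the wide 2 bp regions in the list). The other 4, all in *Hspa5*, had it in a coding exon (44.4%, beside 37.9%). These shares were close to those of the list.

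The 10 remaining regions under 50 bp could each come from 1 junction. In 5 of them (Wilson interval 23.7% to 76.3%) the gap could slide over 8 bp or more, beside 42.3% of all such Dtt regions. These 5 lay in repeated sequence. *Creld2*, an ER protein with disulfide isomerase activity, lost 1 unit of GCT from a run of 17 bp in a coding exon at chr15:88650170-88650187. *Sdf2l1*, an ER protein found in complexes with BiP co-chaperones, lost 2 bases from a homopolymer of 21 bp in the 3′ UTR at chr16:17130382-17130393. *Ppp1r15b*, a regulatory subunit of the phosphatase of eIF2α, lost 12 bp of a repeated unit of 4 bases (a run of 25 bp) in the 3′ UTR at chr1:135036021-135036046. Its stress-induced relative *Ppp1r15a* (GADD34) lost 30 bp at chr7:52779706-52779744 between copies of 8 bases, and *Herpud1* lost 42 bp at chr8:96916195-96916247 between copies of 11 bases, both in coding exons. The sequences are given because the repeat is visible in each, again on the strand of the gene and with removed bases in capitals.
Creld2, chr15:88650161-88650184: ccgcgttcggGCTgctgctgctgc
Sdf2l1, chr16:17130382-17130404: acctgctgaaaTTtttttttttt
Ppp1r15b, chr1:135036018-135036047: tccaAGGCAGGCAGGCaggcaggcaggcat
Ppp1r15a, start of the gap, chr7:52779730-52779756: ggagaggacacaGAGGAAGAAGACAGC
Ppp1r15a, end of the gap, chr7:52779703-52779729: GATTCGGATTCAGCTgaggaagacaca
Herpud1, start of the gap, chr8:96916183-96916209: gaaaaccagccgGCCAATCAGAATGCA
Herpud1, end of the gap, chr8:96916222-96916248: GTTGTCAATCCCGGAgccaatcagaac
In *Ppp1r15a* and *Herpud1*, the bases at the start of the gap are repeated right after its end. All 5 regions had 2 reads.

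The other 5 were a 9 bp region of *Pdia4* at chr6:47746705-47746718 and a 3 bp region at chr6:47753781-47753784, a 2 bp region of *Hsp90b1* at chr10:86158638-86158641, the last *Hspa5* region, and a 2 bp region in the 3′ UTR of *Ero1lb*, an ER oxidase, at chr13:12701351-12701355. The gaps slid over 4 bp at most, and all had 2 reads. Of the 6 regions under 50 bp that lay in coding exons and could come from 1 junction, 5 had a length divisible by 3 (83.3%, Wilson interval 43.6% to 97.0%), beside 32.2% of all such Dtt regions. The exception was the 2 bp region of *Hsp90b1*. A length of 2 bp can never be divisible by 3, and lengths were not matched in this comparison.

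**Figure D4:**
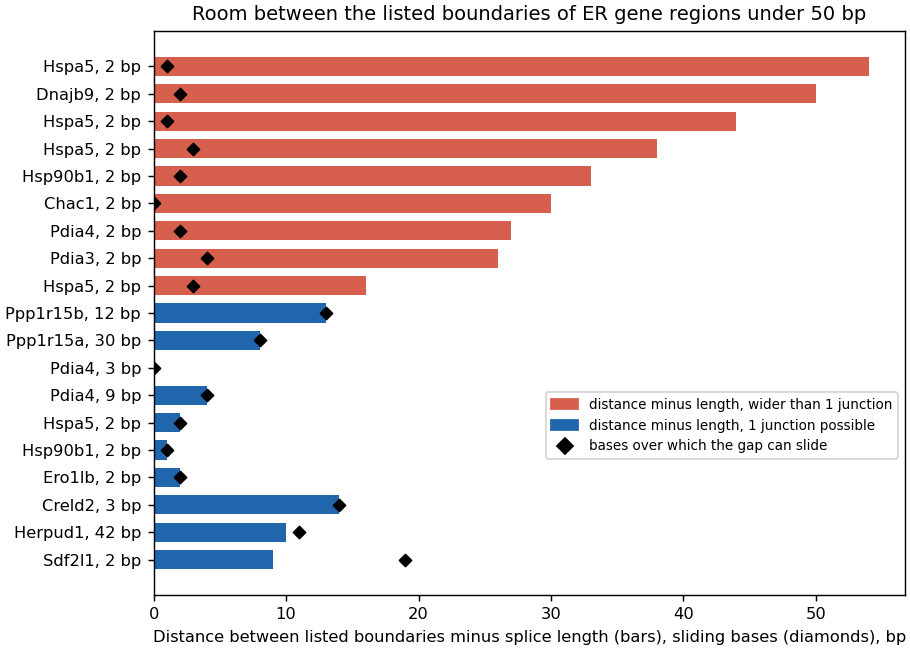
Distance between the listed boundaries minus the splice length, in bp, for the 19 ER gene regions under 50 bp (bars), with the number of bases the gap can slide over (diamonds). In the 9 regions of the upper group the bars run from 16 to 54 bp and pass the diamonds, which stand at 4 bp or less.

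The cut-site letters of *Xbp1* were not found in the 33 regions, and they were also rare in the whole list. IRE1α cuts *Xbp1* mRNA after CNG and before CAG at each end of the intron. The letters CNGCAG on the strand of the gene, placed so that the region begins or ends after CNG, were found at both ends of 0 ER gene regions (Wilson interval 0% to 10.4%), beside 0.395% of all Dtt regions, 10 in number with *Xbp1* included. At 1 end or both they were found in 0 of the 33, beside 3.36% in the list. With list shares this low, 0 of 33 does not set the ER genes apart from the list. A region without these letters may still involve other cut sites, since only this pattern was searched.

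Another 66 genes of the same pathways were read from a list of other folding, translocation, degradation and regulatory genes. Of these, 15 had 19 Dtt regions (22.7% of the genes, beside 8.71% of the protein coding genes) and none had a Tg region. The other folding enzymes had a region in 9 of 17 genes, translocation, signal peptidase and glycosylation genes in 4 of 20, response regulators in 2 of 16 and degradation genes in 0 of 13. Of the 19 regions, 14 were 50 bp or longer (73.7%, beside 81.1% of the list), and 13 of these 14 had GT-AG ends (92.9%, beside 91.1%). In 3 of the 19 the boundaries were wider than 1 junction allows (15.8%, beside 8.01%). These genes were also chosen with earlier results known, and no test was made. Those with 3 or more reads were *Pdia5* (a disulfide isomerase; 491 bp, 4 reads, GT-AG), *Wfs1* (an ER membrane protein of calcium handling; 2 bp, 4 reads) and *Ppib* (a prolyl isomerase; 2588 bp, 3 reads, GT-AG). No region of this wider set had more than 4 reads.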

How the data were processed

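The values the authors deposited are raw counts of reads that support each region in the Het sample, not normalized and never below 2. Splice lengths and boundaries are in bp on mm9, and 0 columns with other samples' numbers stayed unused. Per the methods, reads that Bowtie could not map to mm9 and known UCSC junctions were split, the parts mapped without mismatches, and split reads of equal splice length and nearby boundaries joined. Regions close to known junctions, and those matched in the KO sample, were removed. Strand of the reads and library totals were not used.

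Regions were taken by gene symbol, and the genes and lists were chosen with earlier results of these data known. Each of the 59 genes with a row is named, and of 66 other pathway genes those with a region of 3 or more reads. Sequences came from NCBIM37 (mm9) and annotation from GENCODE vM1, which lacks the symbol of 1 of the 59 genes. In the Dtt list 2482 regions were placed by symbol, 42 by position and 9 not at all. The gap was taken to begin 1 base above the lower boundary. With this reading 84.2% of 247 regions of 50 bp and over with no room between their boundaries had GT-AG ends, against 0.810% when shifted by 1 base either way. All placements within the boundaries or reached by sliding were searched. Effects on a transcript were read from the transcript that shares most ends with the region. Ties went to coding transcripts that span it, then to the fewest bases removed or retained. Distances to annotated acceptors are thus the smallest among such transcripts. On simulated data, 200 of 200 annotated introns were found and 0 called wider than 1 junction, and 200 of 200 pairs of separate 2 bp gaps were called wider. This checks the code and says nothing about the reads behind the listed regions. Shares have 95% Wilson intervals. Exact binomial tests of *Xbp1* against the first ER region, and of the first against the next, were planned and are not given, since their reads chose these regions. The Wilson intervals treat genes or regions as independent draws, although some genes gave several regions. The Poisson intervals cover counting error of the reads only. Neither kind covers variation between libraries. The tools were pysam 0.24.0, matplotlib 3.10.9, scipy 1.17.1 and numpy 2.4.6 under Python 3.11.15.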

Additional observations from a re-analysis of the deposited data

How the results depend on the processing

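The numbers of ER genes and regions in the Dtt list depended on the minimum number of reads. The 20 genes fell to 4 with at least 3 reads and 2 with at least 5, and the 33 regions fell to 4 and 2, since most have 2 reads. Counting rows by position or other symbol, which adds *H47*, gave 21 genes and 34 regions, and leaving out regions wider than 1 junction allows gave 17 genes and 24 regions. Without those wide regions the share under 10 bp fell from 48.5% to 29.2%, by construction, since all 9 are 2 bp long. The other alternatives for this share gave 39.4% to 57.6%, within its interval, and those for GT-AG ends, annotated ends and wide regions did not move the shares. The ratio of *Xbp1* to the first ER region was 17.3 with reads summed per gene. That of the first to the next ER region ran from 1.00 to 2.67, with no test, since the regions were picked by their reads. No paired analysis was possible because there is 1 library for each genotype and experiment, with no replicates to pair.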
